A study of Mus with 12 samples.

Results

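The genotype by oxLDL interaction asks, for each gene, whether cells of 2 genotypes answered oxidised low-density lipoprotein (oxLDL) differently. It was estimated as the oxLDL change in knockout (KO) cells minus the oxLDL change in wild-type (WT) cells, using the read counts of all 12 libraries of the series. Of 27294 genes in the table, 17291 had enough reads to be tested. Each gene with a called interaction was then sorted by the genotype gap, which is the KO minus WT difference, in the untreated libraries: the gap pointed the same way as the interaction, pointed the opposite way, or was not called.

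The RNA is labelled as coming from primary mouse peritoneal macrophages, the phagocytes of the abdominal cavity. The 4 groups were WT without treatment, WT with oxLDL, KO without treatment and KO with oxLDL, with n = 3 libraries each. The series title names WEE1, atherosclerosis and the p65 subunit of NF-κB, and the genotype label says KO with no gene, driver line or target cell named. The treatment label reads oxLDL while the titles of those libraries read LDL, and no dose, time or mouse age is given. Nothing in the labels says whether the replicates came from separate animals, so each p-value measures only the spread between these libraries.

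OxLDL is taken up by macrophages through scavenger receptors such as CD36 and MSR1, and the cholesterol it brings is stored, or exported by the transporters ABCA1 and ABCG1 under control of liver X receptors. Toll-like receptors and their adaptors lead to NF-κB, whose p65 and p50 subunits (genes Rela and Nfkb1) switch on cytokine genes, and to interferon regulatory factors, which switch on interferon-stimulated genes. WEE1 is a kinase best known for restraining cyclin-dependent kinase 1 before mitosis.

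Summed counts ran from 53588814 to 76809931 per library, with WT replicate 2 the shallowest in both treatments. Levels are given as CPM, read counts scaled to a common library size after TMM, a factor that aligns the bulk of genes between libraries. Library pairs were compared by the chi-square of their counts per gene. This was 13.9 to 34.9 between untreated and oxLDL-treated KO libraries, within or close to the 12.6 to 32.3 seen among KO libraries of one treatment. Between untreated and oxLDL-treated WT libraries it was 818 to 1110. Summed CPM of 10 macrophage markers was 29570 to 29830 in WT, 28820 to 30610 in WT with oxLDL, 16530 to 17540 in KO and 16080 to 16820 in KO with oxLDL, and 6 of the 10 had a lower and 2 a higher interaction. Lyz2, for lysozyme, made up most of that sum, averaging 23000 CPM in WT and 11800 in KO. Adgre1, which encodes F4/80, averaged 1670, 3090, 519 and 498 CPM in the 4 groups, while Cd68 was higher in KO, at 1930, 2170, 2550 and 2550 CPM. A list of 10 markers of large peritoneal macrophages summed to 284.5 to 297.9 CPM in WT and 1015 to 1095 in KO, nearly all of it Cd9, while Gata6, the defining factor of that subset, averaged 0.821 to 1.56 CPM in the 4 groups. Other members went both ways: Timd4 averaged 3.01 CPM in untreated WT and 0.0301 CPM in untreated KO, and Fcna averaged 6.71 and 14.2 CPM. T and NK cell markers summed to 4.397 to 6.213 CPM in WT and 10.66 to 12.91 CPM in WT with oxLDL. In KO their sum was 0.7613 to 1.412 CPM, and in KO with oxLDL 0.9127 to 1.246 CPM. Neutrophil markers summed to at most 6.819 CPM in any library. The adipocyte genes Adipoq and Plin1 were at or near 0, although the labels' protocol text mentions adipose RNA. The part of these marker differences in the results was not tested, and in bulk RNA fewer cells of a type and less RNA per cell cannot be told apart.

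Wee1 itself was expressed in all 12 libraries. It stood at 10.1, 10.4 and 8.97 CPM in WT, at 6.17, 7.62 and 7.02 in WT with oxLDL, at 5.64, 5.6 and 4.23 in KO, and at 4.54, 5.49 and 4.35 in KO with oxLDL. All 3 untreated KO libraries lay below all 3 untreated WT libraries, a gap of -0.93 ± 0.14 log2 (SE; adjusted p = 0.000139, edgeR's quasi-likelihood test, adjusted over all genes tested by the Benjamini-Hochberg method). Its interaction of 0.40 ± 0.20 log2 did not pass the same test (adjusted p = 0.14), though it was 0.81 (adjusted p = 0.00376) when libraries were scaled by their totals without TMM. Counts over a whole gene do not check a deletion that removes part of it, and the labels do not say which part, if any, was removed.

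The oxLDL response of WT cells was nearly absent in KO cells. The interaction was called for 7217 genes, 41.7% of those tested, at an adjusted p under 0.05 by edgeR's quasi-likelihood test: 3389 lower (19.6%) and 3828 higher (22.1%). A lower interaction means that the gene rose less, or fell more, with oxLDL in KO than in WT. Among the 3389 lower genes the oxLDL change in WT was itself called for 3308, and among the 3828 higher genes for 3660. The median size of the WT change was 0.78 log2 in the lower and 0.88 log2 in the higher genes, against 0.07 and 0.08 log2 for the KO change. In WT, oxLDL changed 8848 genes (51.2% of those tested). In KO it changed 2 genes (0.0116%), both with a higher interaction, while 1211 genes (7%) had an unadjusted p under 0.05, and DESeq2 called 110. For the median gene tested, the interaction was 0.08 log2 with TMM and 0.49 log2 with library totals alone. The split of the calls moved with that scaling: 47% were lower with TMM and 50.9% with DESeq2, but 20.4% with library totals and 22.6 to 23.4% with limma on the deposited FPKM, which carry no TMM scaling.

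**Figure D1:**
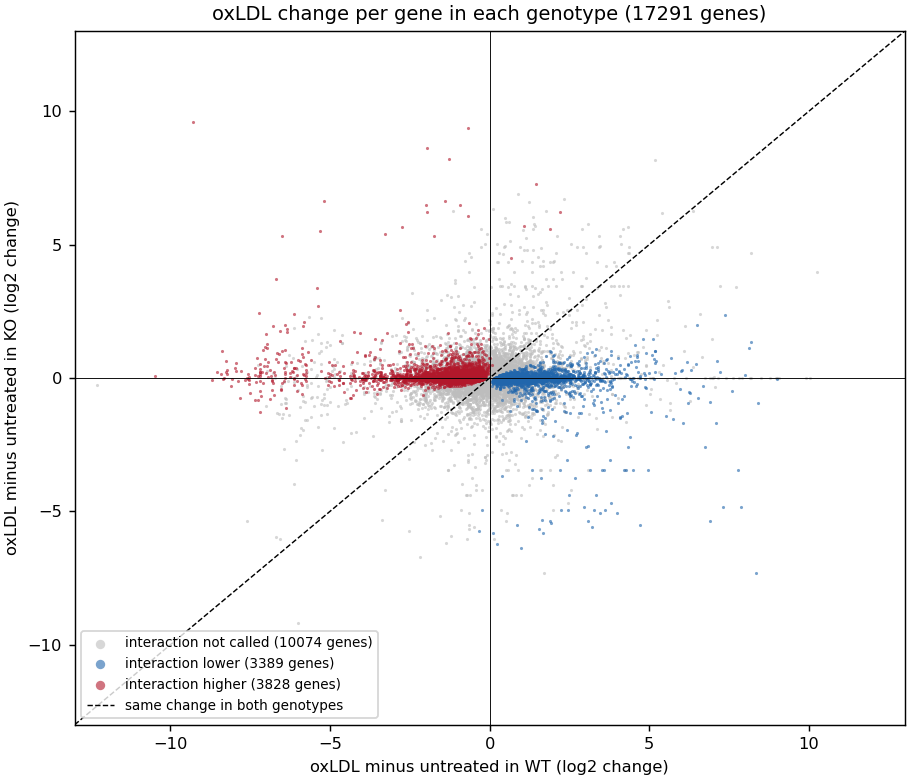
Log2 change with oxLDL in WT (horizontal) and in KO (vertical) for each of the 17291 genes tested, coloured by the call of the interaction; the dashed line marks equal changes. Genes with a called interaction, 3389 lower in blue and 3828 higher in red, mostly lie along the horizontal axis, where the KO change is near 0.

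Sorted by the untreated gap, 1376 of the lower genes (7.96% of genes tested) were already lower in untreated KO cells, 485 (2.8%) were higher there, and 1528 (8.84%) had no called gap. Of the higher genes, 1227 (7.1%) were already higher in untreated KO cells, 467 (2.7%) were lower, and 2134 (12.3%) had no called gap. The untreated gap and the interaction share the 6 untreated libraries, and a chance deviation there moves the 2 values in opposite directions, so no overlap between them was tested. The interaction was largest at the median in genes lower with the gap the same way, at -1.22 log2, against -0.53 log2 with the gap the opposite way and -0.64 log2 with no called gap. For the higher genes the 3 medians were close, at 0.92, 0.93 and 0.97 log2. In the same-way genes, the gap under oxLDL equals the untreated gap plus the interaction, so a share of it was present before treatment. That share had a median of 39.4% over the 2603 same-way genes, and it was over 50% in 732 of them. All shares are given with TMM, and both gaps move with scaling. Over all genes the median untreated gap was -0.01 log2 with TMM and -0.12 log2 with library totals. The median gap under oxLDL was 0.05 and 0.36 log2.

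**Figure D2:**
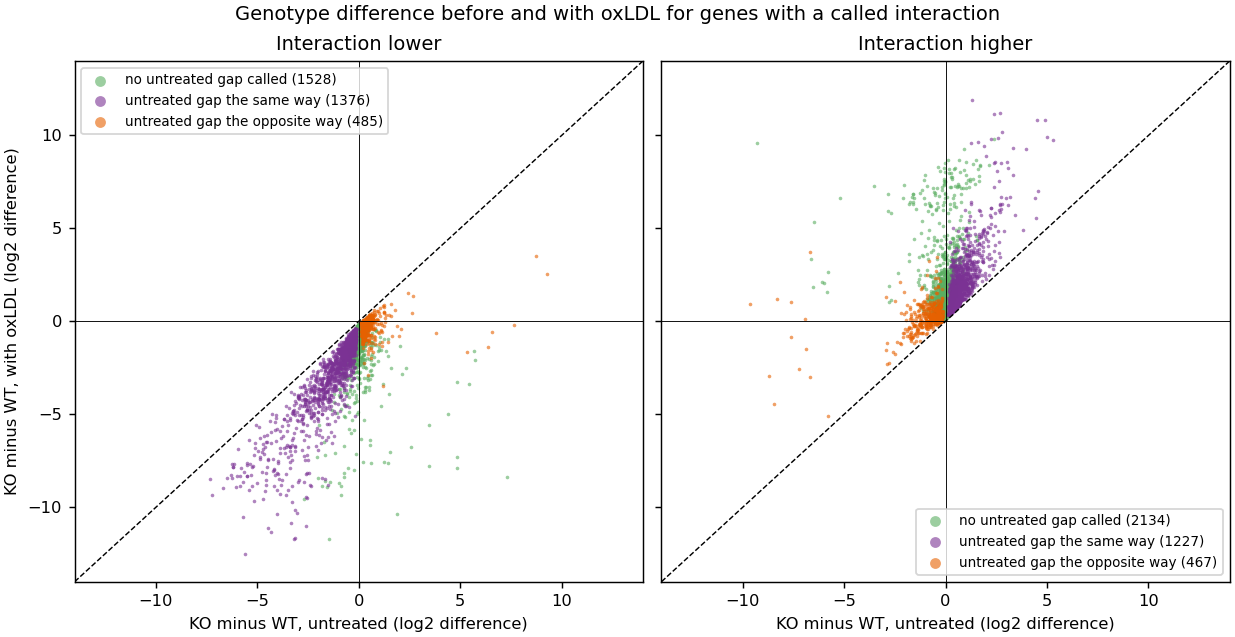
KO minus WT difference without oxLDL (horizontal) against the difference with oxLDL (vertical), both log2, for the 3389 lower (left) and 3828 higher (right) genes; the dashed line marks equal differences. Same-way genes (purple) extend away from 0 on both axes, while opposite-way genes (orange) lie near or across a difference of 0 with oxLDL.

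Inflammatory cytokines and chemokines were low in untreated KO cells and did not show the WT rise. Tnf, which encodes tumour necrosis factor (GRCm38 chromosome 17, 35199381 to 35202007), stood at 72.8, 63.2 and 67.9 CPM in WT and at 1572, 1649 and 1688 CPM in WT with oxLDL. In KO it stood at 7.18, 7.43 and 6.04 CPM, and with oxLDL at 7.49, 9.17 and 11.0 CPM. The 6 KO libraries lay below every WT library. The KO libraries with oxLDL lay just above those without, a change of 0.42 ± 0.12 log2 that was not called (adjusted p = 0.335, edgeR's quasi-likelihood test). The untreated gap was -3.30 ± 0.11 log2 and the interaction -4.17 ± 0.15 log2 (adjusted p = 4.27e-11, edgeR's quasi-likelihood test), so 44.2% of the gap under oxLDL was present without it. Ccl2, the monocyte chemoattractant, stood at 33.8, 35.7 and 36.8 CPM in WT, at 1022, 1134 and 1213 with oxLDL, at 5.91, 6.05 and 5.13 in KO, and at 6.21, 6.37 and 6.77 in KO with oxLDL. Its interaction was -4.81 ± 0.11 log2, with 35.4% of the gap present untreated.

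Of 30 cytokine and chemokine genes tested, 25 were called lower and none higher, against backgrounds of 19.6% and 22.1% of all genes, and 22 of the 25 were same-way genes. The median interaction of the 30 was -3.61 log2 (-3.74 with the 4 members that had a group at 0 counts set to a floor of 3 counts over the group). The lowest was Il1b, for interleukin 1β, at -6.49 ± 0.43 log2. The gap without oxLDL made up a median of 41.4% of the gap with it, and the members differed widely. Il1a, for interleukin 1α, had 3.54%, the lowest share of all 2603 same-way genes. It stood at 64.8, 57.8 and 65.6 CPM in WT and at 53.8, 56.6 and 55.9 CPM in KO, and it reached 1807 to 1826 CPM in WT with oxLDL but 52.2 to 56.4 CPM in KO with oxLDL. Before treatment the genotypes thus differed by -0.18 ± 0.05 log2 in Il1a, and with oxLDL by -5.08 ± 0.06 log2. Lif, Osm and Ccl22 were lower with no called untreated gap. Il6 had an interaction of -5.02 ± 1.76 log2 (adjusted p = 0.0335, edgeR's quasi-likelihood test). It rose from 0.489 to 0.918 CPM in WT to between 115 and 134 CPM with oxLDL, and was at most 0.444 CPM in any KO library. KO replicate 3 was the only untreated KO library with reads of it, so the size of the interaction rested on that library. Without it the untreated KO group was at 0 counts, and the fitted -0.33 (adjusted p = 0.871, same test) cannot size the interaction.

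The inducible nitric oxide synthase Nos2 stood at 18.6, 15.02 and 14.5 CPM in WT, at 4485, 4467 and 4423 CPM in WT with oxLDL, at 3.09, 2.86 and 2.40 CPM in KO, and at 3.03, 3.71 and 11.7 CPM in KO with oxLDL. KO replicate 3 with oxLDL was the highest of the 6 KO libraries and still below every WT library. The interaction was -6.98 ± 0.53 log2, with 26.6% of the gap present untreated. Acod1, which makes itaconate, had instead most of its gap before treatment (67.3%), at 1088 to 1243 CPM in WT and 28.5 to 32.1 CPM in KO. Among lower same-way genes with a mean of at least 100 counts and a symbol that is not a clone or model name, the others with the most negative interactions were the pattern recognition protein Ptx3 (-7.29 ± 0.74 log2), the endothelin gene Edn1 (-6.83 ± 0.88 log2) and the transcript U90926 (-7.01 ± 1.75 log2). The last value had adjusted p = 0.00489 by edgeR's quasi-likelihood test. It was -3.27 (adjusted p = 0.926, same test) without KO replicate 1, the only untreated KO library with reads of U90926. That fit had an untreated KO group at 0 counts, so it cannot size the interaction.

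The components and feedback targets of NF-κB followed the cytokines with smaller interactions. Of 25 genes, 24 were lower and none higher, where 19.6% and 22.1% of all genes were. The median interaction of the 25 was -1.83 log2. Of the 24, 19 were same-way genes, 2 opposite-way genes and 3 had no called gap. Rela stood at 102, 87.3 and 89.2 CPM in WT, at 243, 213 and 221 with oxLDL, at 75.3, 71.9 and 69.7 in KO, and at 64.2, 70.9 and 69.5 in KO with oxLDL. Its untreated gap was -0.36 ± 0.07 log2 and its interaction -1.36 ± 0.10 log2 (adjusted p = 2.92e-08, edgeR's quasi-likelihood test), so 20.9% of the gap was present untreated. Nfkb1 had an untreated gap of -0.56 ± 0.05 log2 and an interaction of -1.91 ± 0.07 log2. The most negative member was Ptgs2, for cyclooxygenase 2, at -5.95 ± 0.29 log2, which oxLDL raised from 15.8 to 19.1 CPM to between 1493 and 1536 CPM in WT. The 2 opposite-way members were Rel and Cd83: Rel, for the c-Rel subunit, stood at 58.9 to 62.1 CPM in untreated WT and 70.2 to 79.7 CPM in untreated KO. With oxLDL it reached 131 to 140 CPM in WT and 68.5 to 72.7 CPM in KO, so the sign of its gap turned.

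Of 29 genes of Toll-like receptor signalling, 22 were lower and 4 higher (20 and 7 with library totals). The backgrounds with TMM were 19.6% and 22.1% of all genes. The co-receptor Cd14 had the most negative interaction, -2.48 ± 0.07 log2, with 131 to 142 CPM in WT, 715 to 743 CPM in WT with oxLDL, and 39.4 to 44.9 CPM over the 6 KO libraries. Tlr2 had a larger gap before treatment than it gained with oxLDL, with 63.5% present untreated. Tlr4, the receptor that senses lipopolysaccharide, had the most positive interaction, 0.93 ± 0.08 log2 (adjusted p = 1.78e-07, edgeR's quasi-likelihood test). It stood at 142, 142 and 128 CPM in WT and at 64.7, 66.8 and 71.0 CPM in WT with oxLDL, against 81.3, 86.1 and 88.9 CPM in KO and 78.5, 81.3 and 80.5 CPM in KO with oxLDL. Tlr4 was thus lower in untreated KO than in untreated WT, and with oxLDL higher in KO. Ticam1, Irak2, Traf6 and Map3k8, which act downstream of the receptors, were lower with an opposite gap, and the sign turned in all 4.

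Interferon-stimulated genes had both the untreated gap and the interaction in every member. All 42 tested were lower in untreated KO (16.2% of all genes were), all 42 rose with oxLDL in WT (23.9% of all genes did), and all 42 had a lower same-way interaction, where 7.96% of all genes did. The median untreated gap was -3.41 log2 and the median interaction -2.24 log2. With library totals in place of TMM, 40 of the 42 interactions were still called lower. Isg15, a ubiquitin-like antiviral protein, stood at 31.1, 33.5 and 35.5 CPM in WT, at 423, 493 and 527 with oxLDL, at 1.52, 2.98 and 1.79 in KO, and at 2.23, 1.97 and 3.15 in KO with oxLDL. The KO groups overlapped and lay below both WT groups. The most negative interaction was that of the exonuclease gene Isg20, -4.76 ± 0.18 log2.

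The share of the gap present untreated was higher in these genes than at the median of all same-way genes: its median was 62.6% and it passed 50% in 35 of 42, against 28.1% of all same-way genes. MHC class I and immunoproteasome genes stood higher still, with a median of 68.0% and all 15 same-way genes over 50%. The activator of class I genes, Nlrc5, stood at 189 to 199 CPM in WT, 757 to 774 CPM with oxLDL, and 31.0 to 34.1 CPM over the 6 KO libraries. Of the 17 class I genes tested, 15 were called lower (11 with library totals, where 1 was called higher). Heat shock genes were at the other end, with shares of 13.7 to 14.9% in the 3 same-way members. The shares are a description with TMM scaling, without a test of one list against another.

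**Figure D3:**
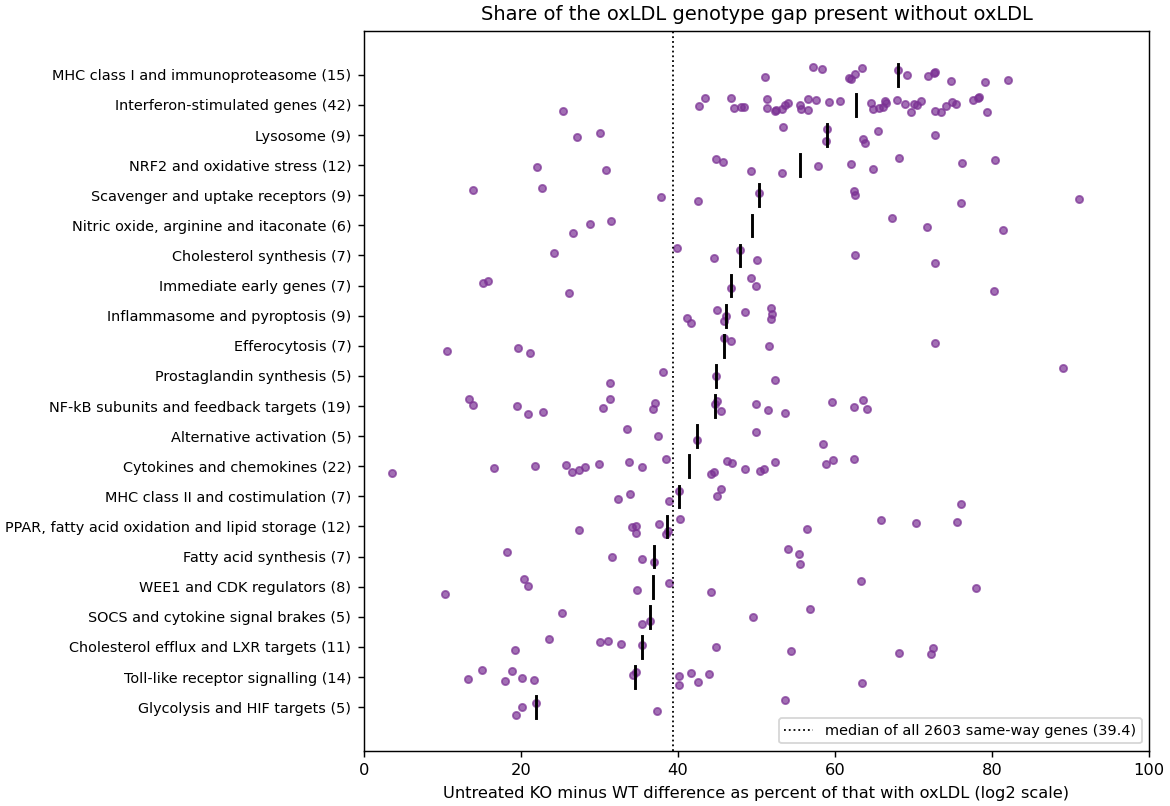
Untreated KO minus WT difference as a percent of the difference with oxLDL, on the log2 scale, for same-way genes of each list with at least 5 of them; each point is a gene, black ticks are list medians, and the dotted line is the median of all 2603 same-way genes (39.4%). MHC class I genes (median 68.0%) and interferon-stimulated genes (62.6%) lie to the right, and glycolysis genes (21.9%) to the left. Shares are with TMM scaling.

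Many lipid-handling and lysosomal genes were same-way genes on the higher side: they were above WT in untreated KO cells and did not fall with oxLDL as in WT. Pparg, the lipid-sensing nuclear receptor (GRCm38 chromosome 6, 115360951 to 115490399), stood at 23.2, 22.4 and 22.6 CPM in WT and fell to 2.85, 2.28 and 2.84 CPM with oxLDL. In KO it stood at 81.7, 88.2 and 86.6 CPM, and with oxLDL at 81.7, 83.0 and 85.1 CPM. No KO library overlapped a WT library, and the interaction was 3.05 ± 0.10 log2 (adjusted p = 1.15e-11, edgeR's quasi-likelihood test). Its target Fabp4 fell in WT from 261 to 275 CPM to between 56.7 and 70.7 CPM and lay between 467 and 612 CPM over the 6 KO libraries. In the list of PPAR, fatty acid oxidation and lipid storage genes, 11 of 24 were higher, 9 of them same-way, and 6 were lower (17 higher and 3 lower with library totals). Among all genes tested, with TMM, 22.1% were higher and 19.6% lower.

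Among 21 cholesterol efflux and liver X receptor genes, 11 were higher, 9 of these same-way (32.1% of all higher genes were), and 5 were lower. All counts in this paragraph stand against 22.1% higher and 19.6% lower among all genes tested. The higher ones included Cyp27a1, which makes 27-hydroxycholesterol (2.09 ± 0.21 log2), and Lipa, the lysosomal acid lipase that frees cholesterol from oxLDL esters (1.40 ± 0.05 log2). The lower ones were led by Ch25h, which makes 25-hydroxycholesterol, at -5.62 ± 0.48 log2. In cholesterol synthesis 11 of 24 were higher and 2 lower (21 and 1 with library totals). The last-step enzyme gene Dhcr7 stood at 33.9, 26.3 and 30.6 CPM in WT, at 4.42, 3.68 and 2.91 with oxLDL, at 60.6, 55.8 and 58.2 in KO, and at 52.5, 52.7 and 58.7 in KO with oxLDL, with an interaction of 2.96 ± 0.17 log2. Of 23 lysosomal genes, 10 were higher, led by Galc, for galactosylceramidase, at 1.77 ± 0.05 log2, and 4 were lower. With library totals, 20 lysosomal genes were called higher and none lower. In fatty acid synthesis 7 of 13 were higher, led by Scd2, a stearoyl-CoA desaturase gene, at 1.69 ± 0.09 log2.

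With TMM, the study's genes of lipid uptake, efflux and storage had small interactions beside larger untreated gaps. The scavenger receptor gene Cd36 stood at 696, 727 and 683 CPM in WT, at 536, 573 and 556 with oxLDL, at 1322, 1295 and 1361 in KO, and at 1269, 1362 and 1210 in KO with oxLDL. Its interaction was 0.29 ± 0.07 log2 (adjusted p = 0.00244, edgeR's quasi-likelihood test), with 76.1% of the gap present untreated. Abca1 stood at 542 to 548 CPM in WT and rose to between 804 and 855 CPM with oxLDL, while all 6 KO libraries lay between 154 and 172 CPM. Its interaction was -0.66 ± 0.06 log2, with 72.2% of the gap present untreated. Plin2, which coats lipid droplets, was higher in untreated KO by 0.64 ± 0.04 log2, and its interaction of 0.10 ± 0.06 log2 was not called (adjusted p = 0.228, edgeR's quasi-likelihood test). With library totals it was 0.51 and was called. The gaps and shares of Cd36 and Abca1 are given with TMM alone. Scaling matters for such small values: the median interaction of all genes was 0.08 log2 with TMM and 0.49 log2 with library totals.

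Within the same limits on counts and symbols, the 4 same-way higher genes with the largest fitted interactions, Sigirr, Ramp1, Cxcr2 and Sfrp5, had 0 counts in all 3 WT libraries with oxLDL. Against a floor of 3 counts over that group, untreated WT was at least 37.6-fold higher for Sigirr, 24.5-fold for Ramp1, 7.42-fold for Cxcr2 and 4.94-fold for Sfrp5, and their interactions were at least 5.44, 5.17, 2.94 and 2.5 log2. Such bounds, here and below, leave out the sampling error of the other groups. Untreated WT counts were only 8, 8 and 14 for Cxcr2 and 8, 12 and 0 for Sfrp5. Sigirr encodes a brake on interleukin 1 and Toll-like receptor signalling. It stood at 1.08, 0.244 and 0.546 CPM in WT, at 3.18, 3.98 and 2.89 in KO, and at 3.49, 4.62 and 3.5 in KO with oxLDL. Cxcr2, which also marks neutrophils, was at most 0.166 CPM in any WT library and 2.22 to 3.51 CPM in the KO libraries. By limma on log2(FPKM + 1), the interactions of Cxcr2 (0.09, adjusted p = 0.438) and Sfrp5 (0.18, adjusted p = 0.133) were not called, nor were they on log2(FPKM + 0.1).

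In the opposite-way class, untreated KO cells stood on the other side of untreated WT from the interaction. Of the 485 lower genes in the class, the gap under oxLDL was no longer called for 177, had turned its sign for 248 and kept it for 60. Of the 467 higher genes the counts were 223, 183 and 61. The balance of the 2 sides depended on scaling: with library totals alone the class held 128 lower and 1447 higher genes. Gaps of single genes are given with TMM throughout. The median gene's gap under oxLDL was 0.05 log2 with TMM and 0.36 log2 with library totals. Whether a small gap has closed or turned thus depends on the scaling. Over all genes tested, 57.9% had a called gap under oxLDL. Abcb1a, a drug efflux pump gene (GRCm38 chromosome 5, 8660077 to 8748575), had one of the smallest gaps left. It stood at 5.34, 5.96 and 5.17 CPM in WT, and at 13.6, 15.5 and 14.8 with oxLDL, at 13.5, 14.2 and 12.4 in KO, and at 13.3, 15.4 and 14.5 in KO with oxLDL. Untreated WT lay below the other 3 groups, which overlapped. The gap went from 1.29 ± 0.10 log2 to -0.02 ± 0.10 log2, with an interaction of -1.31 ± 0.14 log2 (adjusted p = 2.12e-06, edgeR's quasi-likelihood test). Trim36, a ubiquitin ligase gene, went from a gap of 1.0 ± 0.06 log2 to -0.16 ± 0.06 log2. Kank2 went from -1.04 ± 0.18 log2 to -0.02 ± 0.18 log2 on the higher side. Zc3h11a, Tedc1 and Selenom, also among the smallest remaining gaps, had adjusted p from 0.0338 to 0.0386 for the interaction by edgeR's quasi-likelihood test and lost the call under some settings. Dusp2, for a phosphatase of MAP kinases, went from 1.87 ± 0.15 log2 to -0.26 ± 0.14 log2.

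Among lower opposite-way genes with a mean of at least 100 counts, the largest interactions belonged to AI504432 and to Hivep3, Rnf180 and Adgrl2. AI504432 stood at 3.55, 3.39 and 2.87 CPM in WT, at 70.0, 79.9 and 77.3 with oxLDL, at 8.03, 6.67 and 7.82 in KO, and at 6.79, 7.56 and 5.999 in KO with oxLDL. Its gap thus turned from 1.2 ± 0.11 log2 to -3.48 ± 0.11 log2. Hivep3, a zinc finger factor that binds κB-like sites, had an interaction of -3.35 ± 0.18 log2. Rnf180 had -2.57 ± 0.27 log2 and Adgrl2, an adhesion receptor, -2.54 ± 0.15 log2. On the higher side, with the same limit on counts, the largest were Gpr162, an orphan receptor gene (4.36 ± 0.18 log2), Abcg3 (4.08 ± 0.18 log2), Bmf, a pro-apoptotic BCL2 family member (3.89 ± 0.17 log2), and the kinase gene Nuak1 (3.42 ± 0.19 log2).

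Cell cycle lists held the most higher genes of this class. Of 23 DNA replication and S phase genes, 14 were higher and 2 lower, where 22.1% and 19.6% of all genes were. Of the 14, 12 were opposite-way genes, as were 12.2% of all higher genes. Before treatment 18 of the 23 were lower and 1 higher in KO, so a higher interaction could rarely be same-way. With oxLDL, 15 of the 23 fell in WT, as 27.2% of all genes did. Mcm7, a subunit of the replicative helicase, stood at 18.0, 19.6 and 20.5 CPM in WT, at 8.49, 10.5 and 8.38 with oxLDL, at 10.1, 11.2 and 10.7 in KO, and at 12.97, 9.85 and 10.6 in KO with oxLDL. Untreated WT lay above the other 3 groups, and these overlapped. Its interaction was 1.15 ± 0.17 log2 (adjusted p = 6.33e-05, edgeR's quasi-likelihood test), and the gap went from -0.86 ± 0.12 to 0.29 ± 0.12 log2. Mcm2, of the same helicase, turned from -0.39 ± 0.10 to 0.82 ± 0.10 log2. Of the 12, the gap under oxLDL was not called for 5, turned for 4 and kept its sign for 3.

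Among 23 G2 and mitosis genes, 21 were lower in untreated KO and 18 with oxLDL, and the list's median gap went from -1.3 to -0.81 log2. The interaction was higher for 8 and lower for 3, so 47.8% of the list was called, near the 41.7% of all genes. Of the 8, 7 were opposite-way genes, where 12.2% of all higher genes were. With 21 members lower and none higher in untreated KO, a higher interaction could only be opposite-way or without a called gap. Bub1b, of the spindle checkpoint, stood at 18.3, 20.02 and 23.4 CPM in WT, at 6.19, 9.30 and 7.53 with oxLDL, at 8.09, 7.64 and 8.80 in KO, and at 9.30, 8.76 and 8.90 in KO with oxLDL, with an interaction of 1.56 ± 0.19 log2. Top2a, for topoisomerase II, kept a gap of -0.88 ± 0.08 log2 with oxLDL from -1.75 ± 0.08 log2 without. The proliferation marker Mki67 went against its list. It stood at 128 to 140 CPM in WT, 288 to 309 with oxLDL, and 25.5 to 31.3 over the 6 KO libraries, with an interaction of -1.18 ± 0.09 log2. Of 21 genes of WEE1 and its cyclin-dependent kinase circuit, 6 were lower, led by the cyclin gene Ccnd2 (-2.81 ± 0.20 log2), and 8 were higher, led by the checkpoint kinase gene Chek2 (2.68 ± 0.17 log2). With library totals 3 were lower and 9 higher. Among all genes tested, with TMM, 19.6% were lower and 22.1% higher.

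**Figure D4:**
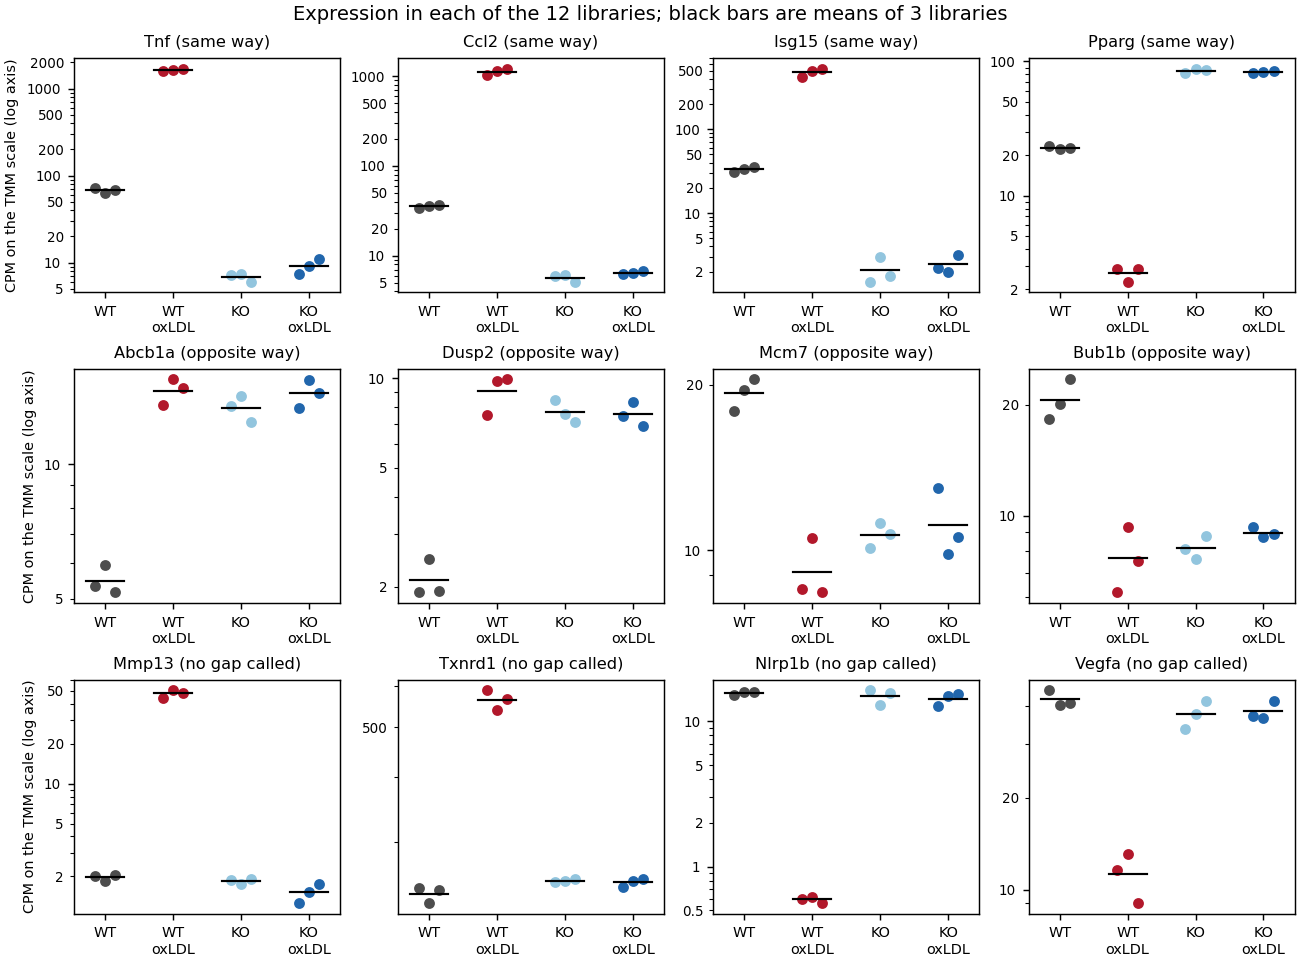
CPM on the TMM scale in each of the 12 libraries (points, log axis with its own range per panel) and group means of n = 3 (bars) for 4 same-way, 4 opposite-way and 4 genes with no called untreated gap. In every panel the KO groups with and without oxLDL lie close together, while WT moves with oxLDL towards the KO level (middle row) or away from it (top and bottom rows).

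The remaining genes had a called interaction and no called untreated gap, which does not show that the gap was 0. Mmp13, the collagenase 3 gene, stood at 2.03, 1.86 and 2.06 CPM in WT and 1.89, 1.76 and 1.91 CPM in KO. With oxLDL it stood at 44.5, 50.6 and 48.3 CPM in WT and 1.26, 1.52 and 1.76 CPM in KO. The untreated groups overlapped, the oxLDL groups did not, and the interaction was -4.88 ± 0.17 log2 (adjusted p = 2.12e-11, edgeR's quasi-likelihood test). Lipg, for endothelial lipase, had an interaction of -6.01 ± 0.45 log2 beside an untreated gap of -0.71 ± 0.33 log2. Neb had -4.99 ± 0.82 log2 and Col12a1 -4.58 ± 1.15 log2, but the WT libraries with oxLDL varied from 1.30 to 22.7 CPM for Col12a1. Txnrd1, a thioredoxin reductase and NRF2 target, stood at 228 to 243 CPM in WT, 539 to 590 with oxLDL, and 244 to 254 over the 6 KO libraries.

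Of 13 heat shock genes tested, 10 were lower and none higher (8 and 1 with library totals). The backgrounds with TMM were 19.6% and 22.1% of all genes. Of the 10, 5 had no called untreated gap, 3 were same-way and 2 opposite-way genes. Hspa1a, the inducible HSP70 gene, had the most negative value at -3.82 ± 0.76 log2, beside an untreated gap of -1.08 ± 0.56 log2 that was not called. Its WT libraries with oxLDL stood at 102, 26.4 and 24.9 CPM, so replicate 1 was far above the others, against 1.5 to 2.72 CPM in untreated WT and 0.787 to 2.61 CPM over the KO libraries. The range of its interaction over all settings tried was -4.25 to -2.57 log2.

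On the higher side without a called gap, the inflammasome sensor gene Nlrp1b (GRCm38 chromosome 11, 71153102 to 71230733) stood at 15.2, 15.9 and 15.9 CPM in WT and at 0.604, 0.620 and 0.562 with oxLDL. In KO it stood at 16.4, 12.9 and 15.7 CPM, and at 12.6, 14.8 and 15.3 with oxLDL. WT with oxLDL lay apart from the other 3 groups, which overlapped, and the interaction was 4.64 ± 0.17 log2 (adjusted p = 4.71e-11, edgeR's quasi-likelihood test). Vegfa, the angiogenic growth factor gene, stood at 40.4 to 45.2 CPM in WT, 9.02 to 13.1 with oxLDL and 33.8 to 41.8 over the KO libraries. Dchs1 (5.33 ± 0.83 log2), Kif5a (4.80 ± 0.92 log2) and BC021767 (4.75 ± 0.79 log2) had the largest values among genes with a mean of at least 100 counts and a symbol that is not a clone or model name, each with at least 1 library at 0 in WT with oxLDL. The untreated gap of BC021767 was 1.16 ± 0.43 log2 (adjusted p = 0.0589, edgeR's quasi-likelihood test), and its untreated groups did not overlap.

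**Figure D5:**
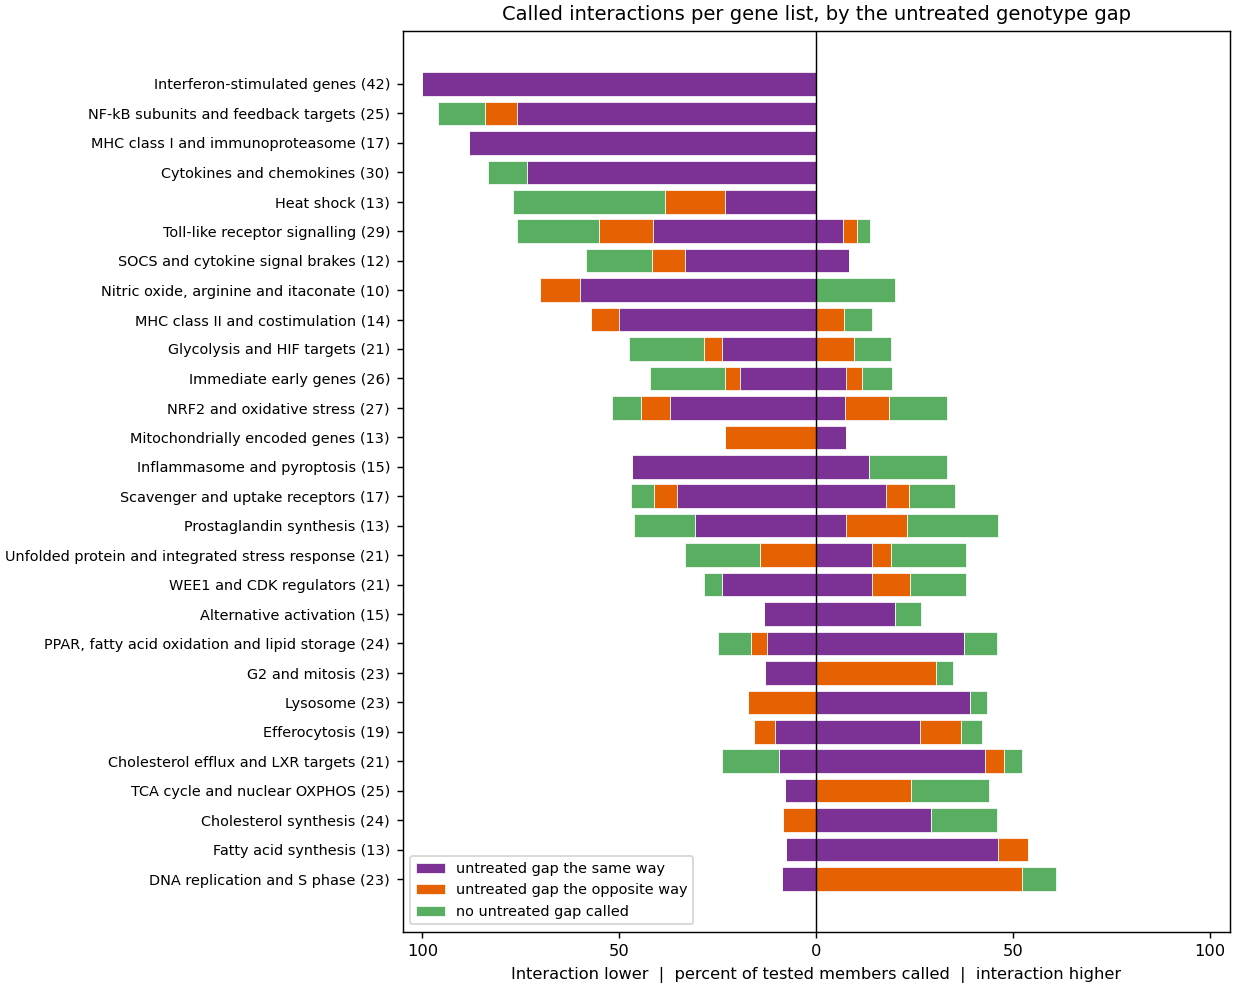
Percent of tested members of each gene list with a lower (left of 0) or higher (right of 0) interaction, split by the untreated gap; the number tested is in brackets. Interferon-stimulated genes (42 of 42 lower) and DNA replication genes (12 of 23 higher with an opposite gap) lie at the ends of the order.

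By edgeR's quasi-likelihood test, only Nphp4 and Ssbp4 were called for oxLDL in KO cells, and both had a higher interaction with an opposite gap. Ssbp4, for a single-stranded DNA binding protein (GRCm38 chromosome 8, 70597490 to 70608872), stood at 9.08, 9.28 and 8.28 CPM in untreated KO and at 19.1, 21.0 and 20.9 CPM in KO with oxLDL. In WT it stood at 16.9, 19.1 and 22.3 CPM, and at 19.8, 11.5 and 13.8 CPM with oxLDL. The untreated KO libraries lay below the other 9, and the interaction was 1.56 ± 0.23 log2 (adjusted p = 5.67e-05, edgeR's quasi-likelihood test). Nphp4, a ciliary gene, had 0 counts in untreated KO against 122 in WT, 37 in WT with oxLDL and 119 in KO with oxLDL, summed over 3 libraries each. The KO level with oxLDL was at least 39.1-fold higher than without, and the interaction was at least 6.58 log2. Uqcrq, a subunit of respiratory complex III, had a similar pattern, at 4.80 to 7.24 CPM in untreated KO and 8.92 to 18.3 CPM in the other 9 libraries, but its KO change was not called (adjusted p = 0.06, edgeR's quasi-likelihood test). The KO calls moved with the libraries used, from 0 to 57 genes when 1 library was left out, with 57 without replicate 1 of WT with oxLDL. Limma on log2(FPKM + 0.1) called none, nor did edgeR with the replicate number as a block.

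The untreated gap was called for 5359 genes (31% of those tested). Of these, 1804, 957 lower and 847 higher in KO, had no called interaction, and in 1382 of these the gap under oxLDL was also called. Arg1, for arginase 1, was one of them, with a gap of -2.96 ± 0.20 log2 without and -3.62 ± 0.21 log2 with oxLDL.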

How the data were processed

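Poly(A) RNA was sequenced in 12 libraries in pairs on an Illumina instrument, per the labels' protocols. Per the submitters' processing notes, HISAT2 2.0 and Bowtie 0.12.2 were used with build mm8. The deposited coordinates overlapped GRCm38.p6 for 21974 of 21990 genes matched by Entrez identifier (99.93%), so positions are given as GRCm38. How reads were counted, and whether by strand, is not given in the sources used; overlapping, antisense and near-identical genes could not be told apart. The authors deposited raw counts and FPKM (counts per length and library size) per gene, per the file headers.

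Counts of the 4 groups were fitted together with edgeR 4.0.16 in R 4.3.3 (TMM, filterByExpr, quasi-likelihood F-test, no block). The call threshold was 0.05 after Benjamini-Hochberg adjustment over the 17291 genes, and SE is the fold change divided by the root of F. The fit was tested on simulated data in which few genes changed, so that test does not cover the choice of scaling for these data. Alternatives were library totals, upper-quartile scaling, DESeq2 1.42.0, other filters, limma 3.58.1 on log2(FPKM + 1) or log2(FPKM + 0.1), thresholds, a replicate block and leaving out each library. FPKM entered only these. No pairing by replicate number was seen in the expression values: correlations of same-numbered deviations were -0.045 to 0.031 over 18 pairs. A shared batch or animal was not tested.

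The rule, the 28 gene lists and the 12 marker lists were chosen with earlier results of these data known. Named by rule were genes of the study's question, the 4 largest interactions per class with a mean of at least 100 counts and a symbol that is not a clone or model name, the lowest and highest called member of each list, the smallest remaining gaps in the opposite-way class, and genes called in KO. Il1a, Lif, Osm, Ccl22, Acod1, Rel, Cd83, Tlr2, Ticam1, Irak2, Traf6, Map3k8, Isg15, Fabp4, Lipa, Dusp2, Mcm7, Mcm2, Bub1b, Top2a, Txnrd1, Arg1, Adgre1, Lyz2, Cd68, Idh2 and Gas6 were chosen after their values were seen.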

Additional observations from a re-analysis of the deposited data

Results flagged for a closer look

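The difference in the oxLDL change between the genotypes was itself tested, and these results passed by edgeR's quasi-likelihood test. The interaction was lower for 3389 genes and higher for 3828. Among genes of the study's question it was -1.36 log2 for Rela, -1.91 for Nfkb1, -4.17 for Tnf, -6.49 for Il1b, -5.02 for Il6, -4.81 for Ccl2, -6.98 for Nos2, 0.29 for Cd36 and -0.66 for Abca1. The size for Il6 rested on KO replicate 3, the only untreated KO library with reads of that gene. For the genes called for oxLDL in KO cells the interaction was 1.56 log2 for Ssbp4 and, with the floor, at least 6.58 log2 for Nphp4.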

How the results depend on the processing

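Scaling moved the direction of the calls more than their number. With library totals alone the interaction was lower for 1834 and higher for 7174 genes, with 1575 opposite-way genes, and 100 of the 5762 genes called under both scalings had opposite directions. With limma on log2(FPKM + 1) the counts were 2140, 6996 and 1711, and with log2(FPKM + 0.1) they were 2067, 7095 and 1569. The cause was not tested. At an adjusted p under 0.01 there were 534 opposite-way genes. With an interaction of at least 1 log2 there were 3176 genes, 1357 lower and 1819 higher: 1373 same-way, 321 opposite-way and 1482 without a gap. By the sign of the untreated gap alone, 4425 were same-way and 2792 opposite-way. The interaction of mt-Nd5, -0.35 log2, was 0.06 with library totals and 0.06 with limma at either pseudocount. The medians of 8 lists changed sign under at least 1 of these scalings: inflammasome, scavenger receptors, NRF2, unfolded protein response, prostaglandin, glycolysis, mitochondrially encoded and SOCS genes. Leaving out 1 library gave 6681 to 7170 calls. The replicate block gave 6927, of which 6855 were also called without it, and 0 in place of 2 calls for oxLDL in KO cells. Replicate 2 was the shallowest library in both WT groups, and whether libraries of one number share a batch or animal is not known. Over the named genes, 1669 comparisons with an alternative kept direction and call, 99 lost the call, 6 gained it and 3 reversed. Genes under about 1 CPM have wide errors at n = 3.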

Other observations

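Other gene groups split between the directions. Their counts stand against 19.6% lower and 22.1% higher among all genes tested. Genes of the NRF2 and oxidative stress response were lower in 14 and higher in 9 of 27, led by the cystine transporter Slc7a11 (-3.11 ± 0.09 log2) and the glutathione transferase Gsta3 (1.84 ± 0.36 log2), and the sign of the list's median changed with scaling. Efferocytosis genes were lower in 3 and higher in 8 of 19 (2 and 15 with library totals). The receptor gene Axl stood at 54.8 to 61.3 CPM in WT, 406 to 428 with oxLDL and 44.4 to 49.8 over the 6 KO libraries, while its ligand Gas6 stood at 37.9 to 42.4, 8.65 to 9.47 and 55.8 to 59.8 CPM. Their interactions were -2.82 ± 0.07 and 2.15 ± 0.08 log2, so receptor and ligand differed in direction. Glycolysis genes were lower in 10 and higher in 4 of 21, led by Pfkfb3 (-2.26 ± 0.06 log2), and this list's median changed sign with scaling too. Nuclear genes of the TCA cycle and respiratory chain were higher in 11 and lower in 2 of 25 (22 and 1 with library totals), with Idh2, for mitochondrial isocitrate dehydrogenase, at 1.40 ± 0.12 log2 and Cycs, for cytochrome c, at -1.28 ± 0.10 log2.

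Class II antigen presentation and costimulation genes were lower in 8 and higher in 2 of 14 (5 and 3 with library totals), from Cd40 (-3.83 ± 0.17 log2) to H2-Eb1 (0.95 ± 0.21 log2). Scavenger and uptake receptors were lower in 8 and higher in 6 of 17, from the caveolin gene Cav1 (-2.64 ± 0.20 log2) to Lrp1 (0.88 ± 0.10 log2), again with a median whose sign changed with scaling. Among 12 SOCS genes and other cytokine brakes, 7 were lower and 1 higher (4 and 4 with library totals), and the 2 at the ends were family members: Socs3 at -3.81 ± 0.10 log2 and Socs6 at 1.68 ± 0.09 log2. Of 26 immediate early genes, 11 were lower, led by Dusp1 (-2.42 ± 0.18 log2), and 5 higher. The highest of these, Fosb, had at most 16 counts in any library and no fold is given. Mitochondrially encoded genes were all 13 higher in untreated KO (14.8% of all genes were). A called interaction was found for 4 of them (30.8%, against 41.7% of all genes), 3 lower and 1 higher (none lower and 5 higher with library totals). Inflammasome and pyroptosis genes were lower in 7 and higher in 5 of 15, with the pyrin gene Mefv at -3.01 ± 0.11 log2 and Nlrp1b at 4.64 ± 0.17 log2. Genes of nitric oxide, arginine and itaconate were lower in 7 and higher in 2 of 10, those of prostaglandin synthesis lower in 6 and higher in 6 of 13, and those of the unfolded protein response lower in 7 and higher in 8 of 21. Of 15 genes of alternative activation, 2 were lower, led by the transglutaminase Tgm2 (-1.27 ± 0.06 log2), and 4 were higher, led by the lectin Clec10a (2.11 ± 0.33 log2). The sign of the inflammasome, prostaglandin and unfolded protein medians changed with scaling.

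Among the other marker lists, those of monocytes and small peritoneal macrophages summed to 314.5 to 326.2 CPM in WT and 219.5 to 235 CPM in KO, those of mesothelial cells and fibroblasts to 107.4 to 116.6 and 82.87 to 91.15 CPM, those of B cells to 38.25 to 46.53 and 14.28 to 19.19 CPM, and those of erythroid cells and platelets to 33.85 to 39.46 and 13.99 to 17.7 CPM. Mast cell markers summed to 11.82 to 13.78 CPM in WT and 3.376 to 4.275 CPM in KO. Eosinophil markers summed to 1.013 to 1.531 CPM in WT and 8.878 to 9.42 CPM in KO. The KO sum was nearly all Siglecf, which averaged 1.19 CPM in WT and 8.79 CPM in KO. Dendritic cell markers summed to at most 4.642 CPM in any library. Among adipocyte markers, Fabp4 made up nearly all of the sum.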
